A study of Homo sapiens with 480 samples.

Results

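The 6 genes described here, ADM, CTHRC1, TMSB15A, FHL1, OXTR and APCDD1L, were chosen by a fall in expression between untreated BJ fibroblasts and the same line at day 2 of reprogramming, and they are 6 of the 27021 genes listed for each cell. BJ is an established human skin fibroblast line. Single cells were profiled in 5 groups of 96: cells with no added factors, cells at day 2 and at day 8 of virally induced expression of OSKM (the reprogramming factors OCT4, SOX2, KLF4 and MYC), and cells at day 16 sorted as positive or negative for TRA-1-60. TRA-1-60 is a surface antigen of pluripotent stem cells. The groups are called BJ, day 2, day 8, day 16 TRA-1-60 positive and day 16 TRA-1-60 negative. All 4 later groups carry the induced virus, and the BJ cells, labelled WT, are the only ones given no factors. The label of a fall by day 2 held for 5 of the 6 genes, since APCDD1L stood as high at day 2 as in BJ cells and was low only from day 8.

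ADM encodes adrenomedullin, a secreted vasodilator peptide that acts through the receptor CALCRL together with RAMP co-receptors and whose gene is a known target of the hypoxia response. CTHRC1 encodes a secreted collagen triple helix repeat protein that is made by activated fibroblasts and takes part in non-canonical Wnt signalling. TMSB15A is a beta-thymosin, a small protein that binds actin monomers, and FHL1 is a LIM domain protein of muscle and of the actin cytoskeleton. OXTR is the oxytocin receptor, coupled to Gq proteins, and APCDD1L is a membrane protein related to the Wnt inhibitor APCDD1. Fibroblasts are rich in contractile and matrix proteins, and reprogramming is known for an early loss of the fibroblast programme before pluripotency genes come on.

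Each value below is FPKM, a measure of fragments per length of gene and per sequenced library, rescaled so that the values of 1 cell sum to 1e+06, and a gene was taken as detected in a cell at a value of 1 or more. Cells with fewer than 2000 detected genes, or with neither ACTB nor GAPDH detected, were left out, which kept 92 BJ, 96 day 2, 92 day 8, 95 day 16 TRA-1-60 positive and 85 day 16 TRA-1-60 negative cells. Median detected genes per kept cell lay between 5678 and 5915 across the groups, but 32 kept TRA-1-60 positive cells held under 4000 genes, against 3 TRA-1-60 negative cells. The labels do not mark cells by culture, infection or chip, and each group is therefore treated as 1 sample whose cells are not replicates, and group and chip cannot be told apart. No difference between groups was therefore tested, and no p-value is given. A value of 0 in a cell can be a missed transcript as well as an absent one. A difference was called at 2-fold by log2((mean + 1)/(mean + 1)) where at least 1 of the 2 means reached 1, and intervals on shares of cells are exact binomial 95% intervals that cover counting error only. Reads per cell are not given, so the depth is unknown, and the sources do not say whether the 5 deposited tables were normalised together. Summed fibroblast markers had means of 12082 (BJ), 6325 (day 2), 3087 (day 8), 1976 (TRA-1-60 positive) and 10946 (TRA-1-60 negative), while pluripotency markers averaged 1.57, 2.04, 103, 2852 and 45.98 in the same order. All 8 fibroblast markers had a mean of 1 or more in 4 groups and 6 of 8 did in the TRA-1-60 positive cells. VIM alone averaged 7607, 3830, 2410, 1428 and 3223 in the same order, so it was a large part of the fibroblast sums. THY1, unlike the other fibroblast markers, was higher in TRA-1-60 positive (351) than in BJ cells (265).

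The coding sequences of TMSB15A and its paralogue TMSB15B are shown because they bear on how far the 2 genes could be separated by the authors' counting. They are given 5′ to 3′ from the start codon, from GENCODE on GRCh38, with the differing bases in capitals. TMSB15A spans chrX:102514087-102515163 on the minus strand and TMSB15B spans chrX:103964523-103965576 on the plus strand, with a second copy of the same coding sequence at chrX:104073287-104074340 on the minus strand.
TMSB15A: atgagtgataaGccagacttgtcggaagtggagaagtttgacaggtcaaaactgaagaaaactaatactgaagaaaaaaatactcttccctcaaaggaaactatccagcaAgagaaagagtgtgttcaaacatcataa
TMSB15B: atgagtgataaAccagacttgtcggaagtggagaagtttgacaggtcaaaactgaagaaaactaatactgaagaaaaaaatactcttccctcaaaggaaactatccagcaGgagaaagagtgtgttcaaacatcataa
The 138 bases differ at 2 positions counted from 1 at the A of the start codon, G12A and A111G with the TMSB15A base first, an identity of 98.6%. A run of 98 bases between those positions is the same in both. Of the 636 windows of 50 bases in the TMSB15A transcript, 49 (7.70%) also occur in TMSB15B, so a read of 50 bases from those windows could not be assigned to 1 gene. The share depends on the window length and does not measure how uncertain the TMSB15A values are. No window of the ADM, CTHRC1, OXTR or APCDD1L transcripts was found in another gene, and 23 of 2829 windows (0.813%) of FHL1 were. The search used the longest coding transcript of each gene and could miss shared runs only slightly longer than a window.

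The 250 bases before the ADM start are shown because ADM had the largest fall at day 2 and is known as a hypoxia target. They are from RefSeq, GRCh38.p14, chr11:10304823-10305072 on the plus strand, with GCGTG in capitals.
ADM: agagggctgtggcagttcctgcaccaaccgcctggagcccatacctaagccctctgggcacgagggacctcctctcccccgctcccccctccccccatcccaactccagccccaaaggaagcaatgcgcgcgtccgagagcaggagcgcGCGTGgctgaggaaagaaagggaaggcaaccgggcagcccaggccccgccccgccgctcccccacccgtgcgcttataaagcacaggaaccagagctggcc
This window is 68% G and C and holds GCGTG, 1 form of the hypoxia element core, once, at -101. On either strand GCGTG occurs in 32.2% of the 34943 promoter windows of the same length, so its presence is common. The other form, ACGTG, occurs in 18.5% of windows, the AP-1 motif TGANTCA in 6.59%, the TEAD motif GGAATG in 11.9% and the CArG box in 1.16%, and none of these letters is in the ADM window. Of the other genes, TMSB15A had 1 window with none of the 5 motifs, OXTR had 3 windows with GCGTG in 1 of them, and FHL1 had 12 windows with AP-1 in 2, ACGTG in 2, GCGTG in 5, TEAD in 1 and the CArG box in 1. A match is a description of the letters and not a bound site.

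ADM was the most abundant of the 6 genes in BJ cells and the one whose mean was lowest relative to BJ at day 2. The lowest value was 0 for all 6 genes in all 5 groups, so medians and highest cells are given. For ADM the medians were 186 in BJ cells, 1.49 on day 2, 9.35 on day 8, 0 in TRA-1-60 positive and 0 in TRA-1-60 negative cells. Highest cells reached 2637, 574, 2086, 936 and 1120 in that order, so the groups overlapped throughout. ADM was detected in 56.25% of day 2 cells (interval 45.7 to 66.4%) against 95.7% of BJ cells (89.2 to 98.8%), and its mean was 46.9 at day 2 against 386 in BJ cells, 8.08-fold lower with 1 added to each mean. At day 8, 70.7% of cells held it, with a mean of 98.3, a log2 ratio of 1.05 to day 2. The highest cell held 23.1% of the day 8 sum, and without the highest cell of each group the log2 ratio was 0.87, short of 2-fold. At day 16, 23.2% of TRA-1-60 positive and 45.9% of TRA-1-60 negative cells held ADM, with means of 21.1 and 98.1. ADM in TRA-1-60 negative cells was split between cells at 0 and cells at a high value. The median among cells that held it was 155, near the 193 of BJ cells that held it.

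CTHRC1 was detected in fewer cells at day 2, was lower again at day 8, and stood within 2-fold of its BJ level in TRA-1-60 negative cells at day 16. Its median was 72.7 in BJ cells, 0.412 on day 2, 0 on day 8, 0 in TRA-1-60 positive and 64.7 in TRA-1-60 negative cells, and the highest cells reached 957, 767, 335, 606 and 706. The TRA-1-60 negative cells and the BJ cells covered much the same range. CTHRC1 was detected in 48.96% of day 2 cells against 86.96% of BJ cells, with means of 35.5 at day 2 and 144.5 in BJ cells and a log2 ratio of -1.99. With cells scaled on housekeeping genes in place of their total, that log2 ratio was -0.93, short of 2-fold. At day 8, 29.3% of cells held it, with a mean of 16.2. At day 16 it was detected in 13.7% of TRA-1-60 positive cells with a mean of 10.7, of which 1 cell gave 59.8%, against 75.3% of TRA-1-60 negative cells (64.7 to 84.01%) with a mean of 102.5. The log2 ratio of TRA-1-60 negative cells was 2.59 to day 8 and -0.49 to BJ cells, the second of which was not called. Over all measured genes the median log2 ratio was 0.49 to day 8 and 0.51 to BJ cells. On FPKM as deposited the CTHRC1 ratio to BJ cells was -0.75.

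**Figure D1:**
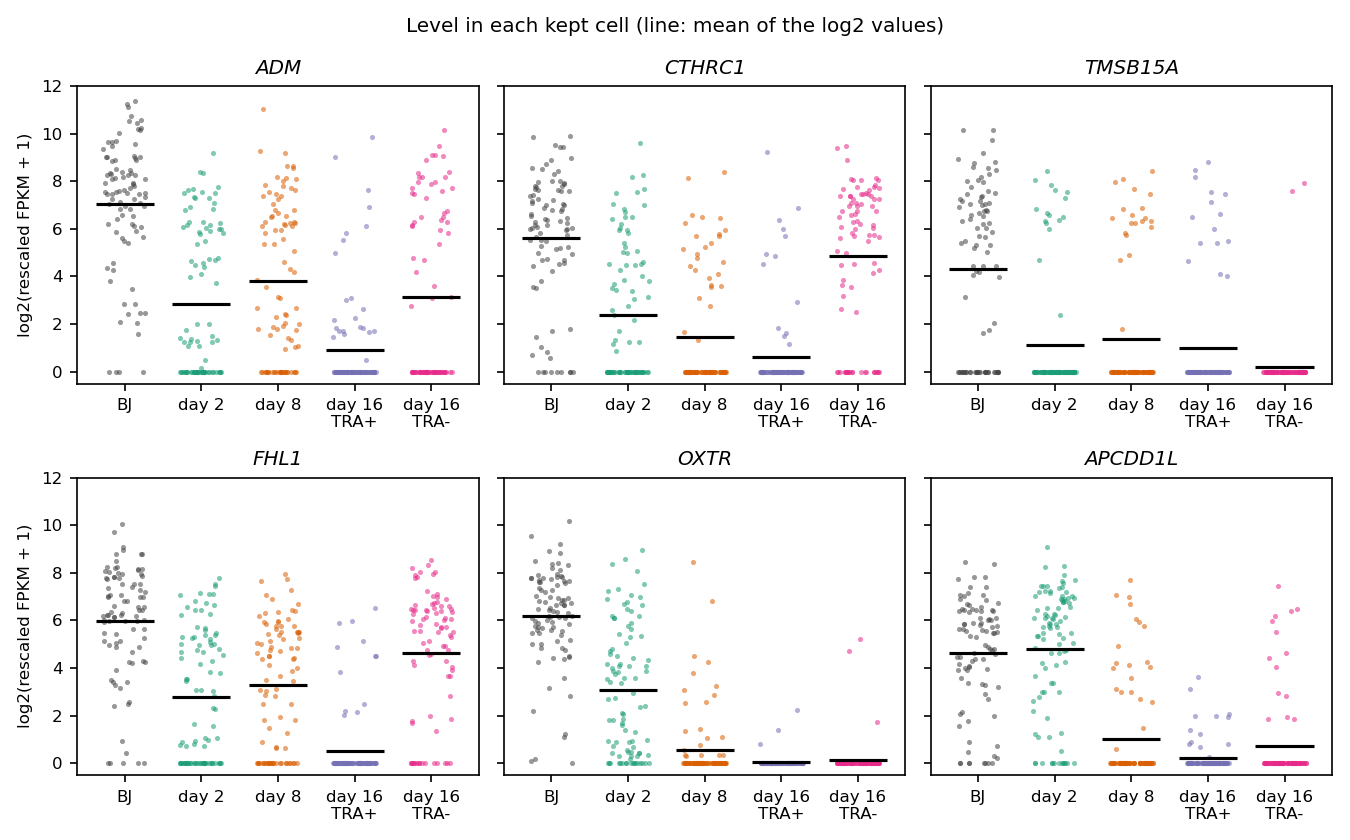
Level of each gene in every kept cell, as log2 of rescaled FPKM plus 1, in the 5 groups; each point is 1 cell and the line is the mean of the log2 values. In CTHRC1 and FHL1 the TRA-1-60 negative cells (TRA-) have medians of 64.7 and 46.4, against 72.7 and 79.3 in BJ cells, while OXTR and APCDD1L cells of day 16 lie mostly at 0.

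TMSB15A was a gene of some cells in every group, and at day 2 fewer cells held it while those that did held it at the level of BJ cells. Its median was 40.3 in BJ cells and 0 in each of the 4 later groups, with highest cells at 1146 in BJ cells, 340 on day 2, 339 on day 8, 452 in TRA-1-60 positive and 239 in TRA-1-60 negative cells. It was detected in 16.7% of day 2 cells against 66.3% of BJ cells, a difference of -49.6 percentage points. The mean log2 value among cells that held it differed by 0.07 between day 2 and BJ cells, with 16 such cells at day 2. The same difference was -2.46 for ADM, -1.70 for CTHRC1, -1.64 for FHL1 and -1.80 for OXTR. For TMSB15A that level was also 6.30 at day 8 and 6.35 in TRA-1-60 positive cells, against 6.48 in BJ cells. Its transcript has 685 bases, against 1271 or more for the other genes. Whether low levels of so short a transcript were missed more often was not tested. Day 8 and TRA-1-60 positive cells held it in 21.7% and 15.8% of cells, with means of 24.7 and 21.3. Only 2 TRA-1-60 negative cells held it, 2.35% (0.286 to 8.24%), so the mean of 5.04 there rests on 2 cells.

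TMSB15B, which shares part of its sequence with TMSB15A, had means of 44.1 in BJ cells, 27.6 on day 2, 35.9 on day 8, 29.7 in TRA-1-60 positive and 27.1 in TRA-1-60 negative cells. It was detected in 18.8% of TRA-1-60 negative cells. With both genes summed, a setting added after the data were seen, the log2 ratio of day 2 to BJ cells was -1.74 against -2.44 for TMSB15A alone. The summed ratio of TRA-1-60 negative cells to day 8 was -0.89 and that of TRA-1-60 positive to negative cells was 0.65, both short of 2-fold.

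FHL1 was lower at day 2 and at day 8, and at day 16 it was low in the TRA-1-60 positive and high in the TRA-1-60 negative fraction. Its medians were 79.3 in BJ cells, 3.95 on day 2, 14.3 on day 8, 0 in TRA-1-60 positive and 46.4 in TRA-1-60 negative cells, with highest cells at 1064, 220, 243, 90.3 and 364. The highest TRA-1-60 positive cell lay below the highest cell of every other group. FHL1 was detected in 55.2% of day 2 cells against 92.4% of BJ cells, and its mean was 28.3 at day 2 against 143.7 in BJ cells. At day 16 it was detected in 12.6% of TRA-1-60 positive cells (6.70 to 21.03%) and in 81.2% of TRA-1-60 negative cells (71.2 to 88.8%), with means of 3.59 and 69.1. The log2 ratio to day 8 was -2.84 for TRA-1-60 positive and 1.09 for TRA-1-60 negative cells. The second ratio was 0.83 on FPKM as deposited and 0.92 with a pseudocount of 10. FHL1 in TRA-1-60 negative cells was still below BJ cells by a log2 ratio of -1.05, which was -0.90 when no cell was left out and -0.96 with a pseudocount of 10.

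OXTR, detected in the largest share of BJ cells among the 6 genes, was lower at each later time and was detected in few cells at day 16. Its medians were 86.5 in BJ cells, 6.13 at day 2 and 0 in the other 3 groups, and the highest cells were at 1150 in BJ cells, 502 on day 2, 346 on day 8, 3.72 in TRA-1-60 positive and 36.1 in TRA-1-60 negative cells. It was detected in 63.5% of day 2 cells (53.1 to 73.1%) against 96.7% of BJ cells (90.8 to 99.3%), with means of 39.6 at day 2 and 139.5 in BJ cells. At day 8, 15.2% of cells held it, and 62.97% of the sum came from 1 cell. Without the highest cell of each group the log2 ratio of day 8 to day 2 was -3.47, against -2.55 with it. OXTR was detected in 2 of 95 TRA-1-60 positive cells (2.11%) and in 3 of 85 TRA-1-60 negative cells (3.53%), with means of 0.0639 and 0.748, so the 2 fractions were not compared.

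APCDD1L was not lower at day 2. Its median was 41.3 in BJ cells, 51.2 at day 2 and 0 in each of the other 3 groups, and the highest cells were at 349, 544, 206, 11.4 and 171 in the order BJ, day 2, day 8, TRA-1-60 positive and TRA-1-60 negative. It was detected in 85.4% of day 2 cells (76.7 to 91.8%) against 85.9% of BJ cells (77.05 to 92.3%), with means of 73.2 at day 2 and 56.8 in BJ cells and a log2 ratio of 0.36. That ratio was -0.43 when no cell was left out, so its direction depends on the cell filter, and neither value reached 2-fold. At day 8 APCDD1L was detected in 21.7% of cells with a mean of 9.79, 6.88-fold below day 2 with 1 added to each mean. It was detected in 8.42% of TRA-1-60 positive and 16.5% of TRA-1-60 negative cells, with means of 0.390 and 7.06. The antisense gene APCDD1L-AS1 had a similar order of means, with 6.37 in BJ cells, 7.63 on day 2, 1.09 on day 8, 0.0945 in TRA-1-60 positive and 0.927 in TRA-1-60 negative cells. The exons of the 2 genes share no base in GENCODE, but whether the counting used strand is not stated.

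**Figure D2:**
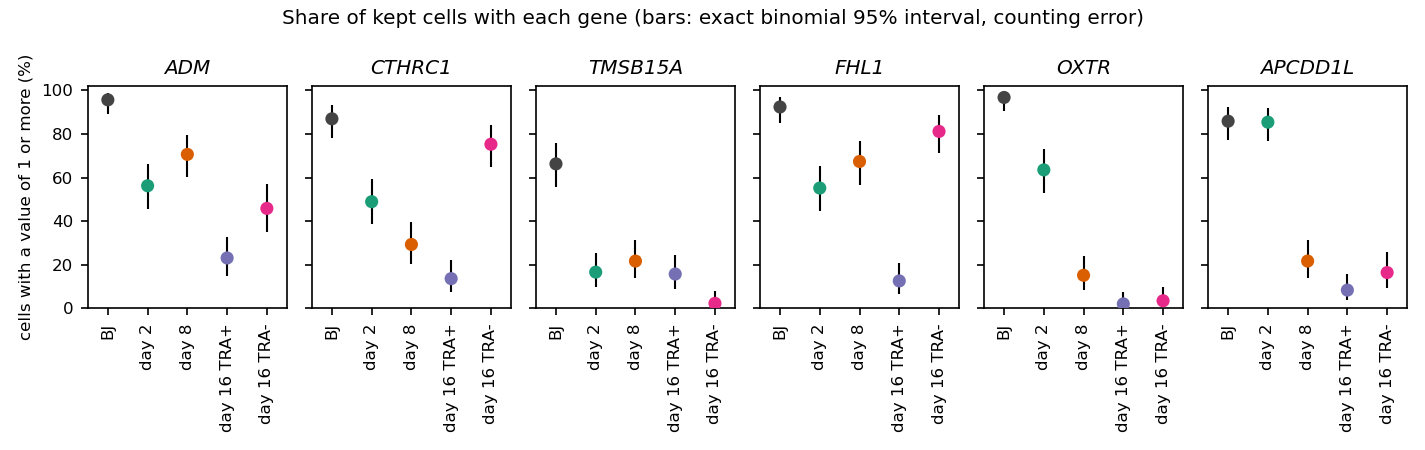
Percent of kept cells with a rescaled FPKM of 1 or more for each gene, by group; points are shares and bars are exact binomial 95% intervals. ADM, CTHRC1, TMSB15A, FHL1 and OXTR stand lower at day 2 than in BJ cells, whereas APCDD1L stands at 85.4% and 85.9%.

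The order of mean levels within a gene placed BJ cells first for all 6 genes except APCDD1L, which was highest at day 2. ADM was followed by day 8 (98.3) and TRA-1-60 negative cells (98.1), which were nearly equal, then by day 2 and TRA-1-60 positive cells. For CTHRC1 and FHL1 the TRA-1-60 negative cells came second and the TRA-1-60 positive cells last. For TMSB15A day 8, day 2 and TRA-1-60 positive cells lay together between 21.3 and 24.7. OXTR and APCDD1L had the same order after day 2, with day 8 above TRA-1-60 negative above TRA-1-60 positive cells. Neighbours in these orders that were not 2-fold apart were day 8 and TRA-1-60 negative cells for ADM and APCDD1L, BJ and TRA-1-60 negative cells and day 8 and TRA-1-60 positive cells for CTHRC1, day 2 and day 8 for FHL1, day 8, day 2 and TRA-1-60 positive cells for TMSB15A, and day 2 and BJ cells for APCDD1L. The fractions of day 16 were not compared for OXTR, since both means were under 1.

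At day 2 against BJ cells, 5 of the 6 genes were at least 2-fold lower and none was higher. Of all 12480 genes measured in that comparison 12.9% were lower and 12.6% higher, but nothing can be read from the difference since the genes were chosen on it. Among the 156 genes with a mean of 10 or more in BJ cells that were at least 2-fold lower and lost at least 25 percentage points of cells, ranked by the difference of mean log2 values, ADM was 1st, CTHRC1 6th, TMSB15A 7th, FHL1 8th and OXTR 10th. Genes other than the 6 took the ranks between, with ID3 2nd, ACTA2 3rd, TGFB1I1 4th, GREM1 5th and HOXA10 9th. The gene ranked just below OXTR (-3.11) was PDIA3P1 (-3.08), and the one just above was HOXA10 (-3.11), so ranks there were close. APCDD1L did not meet the ranking rule.

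CTHRC1 in TRA-1-60 negative cells was the only later value from day 8 on that was not called lower than in BJ cells. At day 8 all 6 were lower than in BJ cells, where 15.8% of 12720 genes were lower and 15.3% higher. In TRA-1-60 positive cells all 6 were again lower than in BJ cells, where 14% of 13784 genes were lower and 35.9% higher. In TRA-1-60 negative cells 5 were lower and none was higher, where 13.2% of 13163 genes were lower and 31.7% higher. The 4 comparisons share the BJ cells, so the counts are not separate evidence. The genes were chosen for a fall from BJ cells, so standing below BJ cells later is in part built in. The excess over the shares of all genes is therefore not read as a result. Log2 ratios to BJ cells were -7.05 for OXTR, -5.38 for APCDD1L, -4.98 for FHL1, -4.13 for ADM, -3.64 for CTHRC1 and -2.47 for TMSB15A in TRA-1-60 positive cells. The median log2 ratio of all measured genes was 0.55 there, and 0.51 in TRA-1-60 negative cells against BJ cells.

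Between day 8 and day 2, which uses no BJ cells, CTHRC1, OXTR and APCDD1L were lower and ADM was higher, where 13% of 12577 genes were lower and 13.1% higher. The CTHRC1 log2 ratio was -1.09 and fell short of 2-fold, at -0.84, in cells with at least 4000 detected genes. TMSB15A and FHL1 were not called, each with a log2 ratio of 0.17. Against day 8, TRA-1-60 positive cells were lower in ADM, FHL1, OXTR and APCDD1L and higher in none, where 11.6% of 13719 genes were lower and 33.1% higher. The OXTR and APCDD1L calls rest on low means, and with a pseudocount of 10 their log2 ratios were -0.67 and -0.93. Against day 8, TRA-1-60 negative cells were lower in TMSB15A and OXTR and higher in CTHRC1 and FHL1, where 10.6% of 12965 genes were lower and 28.8% higher. The mean of ADM was nearly equal in these 2 groups, while its median was 0 in TRA-1-60 negative cells and 9.35 at day 8.

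Comparing the 2 fractions of day 16 directly, TRA-1-60 positive cells were lower than TRA-1-60 negative cells in ADM, CTHRC1, FHL1 and APCDD1L and higher in TMSB15A, among the 5 genes that could be compared. Of all 14060 genes measured, 21.6% were lower and 26% higher. Log2 ratios were -3.93 for FHL1, -3.15 for CTHRC1, -2.54 for APCDD1L, -2.16 for ADM and 1.89 for TMSB15A. The APCDD1L call was lost with a pseudocount of 10 and by the difference of mean log2 values, which was -0.52. The TMSB15A call rests on 2 TRA-1-60 negative cells that held it, and its difference of mean log2 values was 0.83, short of 2-fold. The fractions differed in the number of cells under 4000 genes. In cells with 4000 or more, 15.9% of TRA-1-60 positive and 81.7% of TRA-1-60 negative cells held FHL1, and 19.05% and 76.8% held CTHRC1. Summed fibroblast markers averaged 1976 in TRA-1-60 positive and 10946 in TRA-1-60 negative cells, and their part in the result was not tested.

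**Figure D3:**
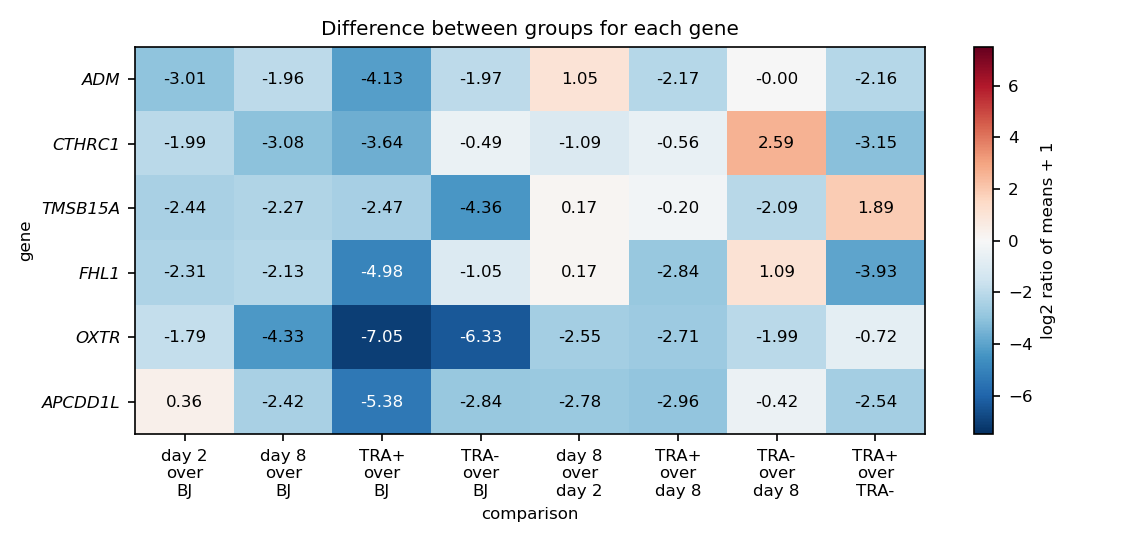
Log2 ratio of means plus 1 for each gene (rows) in 8 comparisons of groups (columns), colour from blue (lower in the first-named group) to red (higher). CTHRC1 and FHL1 are higher in TRA-1-60 negative (TRA-) cells than at day 8, at 2.59 and 1.09, and APCDD1L is not lower at day 2, at 0.36.

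Single BJ cells held most of these genes and the later cells held fewer. The genes were chosen on a fall from BJ to day 2, so nothing can be read from BJ cells holding more of them than later cells. BJ cells held a median of 5 of the 6 genes, day 2 cells 3, day 8 cells 2, TRA-1-60 positive cells 1 and TRA-1-60 negative cells 2. At least 5 of the 6 were held by 81.5% of BJ cells, 19.8% of day 2 cells, 7.61% of day 8 cells and 2.35% of TRA-1-60 negative cells. None of the 95 TRA-1-60 positive cells did, which allows a share of up to 3.16% (3 counts of 95), and 43 of them held none of the 6. At day 2 the loss was uneven from cell to cell: 4 cells held none of the genes and 4 still held all 6. The number held rose with the detected genes of a cell, with Spearman correlations of 0.57, 0.50, 0.45, 0.42 and 0.49 within the groups in the order above, and in cells with at least 4000 genes the medians were 5.5, 4, 2, 1 and 2. The day 2 count therefore moves with how many genes a cell yielded.

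**Figure D4:**
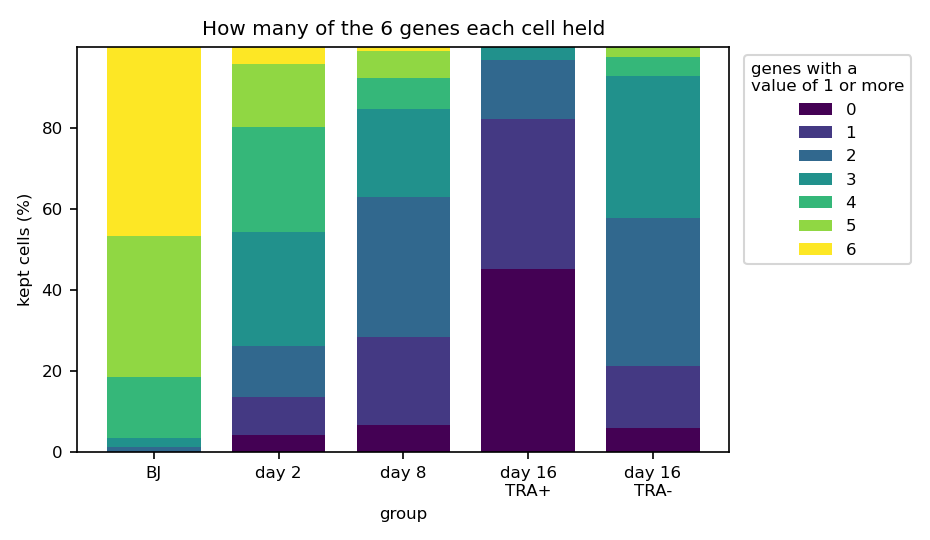
Percent of kept cells in each group that held 0 to 6 of the 6 genes at a value of 1 or more, stacked from 0 at the bottom to 6 at the top. BJ cells held a median of 5 and TRA-1-60 positive cells a median of 1.

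Between cells of 1 group the 6 genes varied together only weakly. Over the 15 pairs, Pearson correlations of log2 values ran from -0.17 to 0.44 in the 92 BJ cells, 0.00 to 0.43 in the 96 day 2 cells, -0.17 to 0.58 in the 92 day 8 cells, -0.14 to 0.41 in the 95 TRA-1-60 positive cells and -0.13 to 0.23 in the 85 TRA-1-60 negative cells. The pair OXTR and APCDD1L was the closest in BJ cells (0.44) and at day 8 (0.58), where 9 cells held both, 5 only OXTR, 11 only APCDD1L and 67 neither. At day 2 the closest pair was FHL1 and OXTR (0.43). In TRA-1-60 negative cells, 55 of 85 held both CTHRC1 and FHL1 and 7 held neither, and their levels correlated at 0.15. By Spearman correlation the closest pair at day 8 was CTHRC1 and APCDD1L, at 0.46 against 0.45 for OXTR and APCDD1L. The cells of a group differ in detected genes, and the correlations are descriptions.

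At day 2 OXTR and CTHRC1 were higher in cells richer in fibroblast markers, and OXTR and FHL1 already were in BJ cells. The Pearson correlation with summed fibroblast markers over the 96 day 2 cells was 0.51 for OXTR, 0.41 for CTHRC1, 0.22 for FHL1, 0.15 for APCDD1L, 0.12 for ADM and 0.05 for TMSB15A. In the 92 BJ cells it was 0.37 for OXTR, 0.40 for FHL1 and 0.16 for CTHRC1. Spearman correlations there were 0.25, 0.28 and 0.17, and at day 2 they were 0.51 for OXTR and 0.44 for CTHRC1. In BJ cells OXTR and FHL1 also rose with detected genes, at Spearman 0.28 and 0.21, and the part of this was not tested. Over the 92 day 8 cells the Pearson correlation with fibroblast markers was 0.41 for FHL1 and 0.39 for CTHRC1, and APCDD1L correlated at -0.41 with summed pluripotency markers. Over the 85 TRA-1-60 negative cells it was 0.37 for CTHRC1 and -0.36 for TMSB15A, which only 2 of those cells held. With summed epithelial markers APCDD1L correlated at 0.47 over the day 2 cells and at -0.36 over the day 8 cells.
Summed epithelial markers averaged 296 in BJ, 1293 on day 2, 4611 on day 8, 2702 in TRA-1-60 positive and 1044 in TRA-1-60 negative cells. They were higher in every later group than in BJ cells, and above the fibroblast markers at day 8 and in TRA-1-60 positive cells. KRT18 alone averaged 289, 1214, 3203, 1568 and 986 in that order of groups, so it made up most of each sum. Of the 6 epithelial markers 3 had a mean of 1 or more in BJ, day 2 and TRA-1-60 negative cells, 5 did at day 8 and 6 in TRA-1-60 positive cells, and CDH1 and ESRP1 were at 0 in TRA-1-60 negative cells. Summed endothelial markers averaged between 0.665 and 38.7, blood and immune markers between 0.442 and 13.8, and smooth muscle markers between 46.1 and 119 across the 5 groups. Summed keratinocyte markers averaged 81.7 at day 2 and 0.0136 in BJ cells, nearly all of it KRT14 at 81.6, while KRT5 averaged 0.0425 at day 2 and 0 in BJ cells. Whether these bear on the 6 genes was not tested.

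The genes whose 5 group means lay nearest to each of the 6 were named by the root mean square difference of log2(mean + 1) over the 5 groups, among 5381 genes with a mean of 10 or more in BJ cells. For ADM they were HSPB1 (0.55), HES1 (0.78) and MYH9 (0.80), a small heat shock protein, a Notch target and non-muscle myosin. The nearest to CTHRC1 were RCN3 (0.58), FBLN5 (0.61) and DAB2 (0.64), of which FBLN5 is an elastic fibre protein. TMSB15A had PXN-AS1 (0.51), HYI (0.66) and GTSE1 (0.75). Of all the genes named, EVA1A came closest, to FHL1 (0.34), followed for FHL1 by GLT8D2 (0.65) and CDC42EP3 (0.72). OXTR lay nearest to PSG5 (0.60), KRT81 (0.67) and IL6 (0.78), a cytokine, and APCDD1L to MRGPRF (0.37), CRYAB (0.51) and SERPINB7 (0.75). EVA1A had means of 101 (BJ), 25.9 (day 2), 23.7 (day 8), 2.70 (TRA-1-60 positive) and 60.8 (TRA-1-60 negative).

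Other genes of the same pathways were read from 7 lists with 106 genes in all. The adrenomedullin list (receptor, co-receptors, processing enzymes and related peptides) had 4 of 10 genes measured at day 2 against BJ cells, and none was called in either direction. The hypoxia targets had 15 of 16 genes measured, of which 1 was higher and none lower, with a median log2 ratio of 0.01 against -0.02 over all genes, of which 12.6% were higher and 12.9% lower. On FPKM as deposited 4 hypoxia targets were higher and 1 lower, and with housekeeping scaling 2 were higher and 1 lower. The hypoxia targets highest in BJ cells were P4HA2, LOX and BNIP3L, whose log2 ratios at day 2 were -0.32, 0.01 and -0.82. EGLN3 was the 1 called higher, held by 3.13% of day 2 cells. ADM itself stood at -3.01 in that comparison.

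In TRA-1-60 negative cells several genes of the adrenomedullin list stood higher than at day 8. Of 6 genes measured, 5 were higher and 1, MME, was lower, with a median log2 ratio of 2.29 against 0.49 over all genes, of which 28.8% were higher and 10.6% lower. RAMP1, a co-receptor of CALCRL, averaged 511 in TRA-1-60 negative cells against 3.04 at day 8, and 69.4% and 3.26% of cells held it. CALCRL averaged 16.6 against 2.35. PAM, which amidates peptide hormones, averaged 36.6 against 11.01. ADM2 and RAMP3 were the other genes called, held by 36.5% and 11.8% of TRA-1-60 negative cells, against 1.09% of day 8 cells for each. The co-receptor RAMP2 was not measured in this comparison, with means of 0.116 in TRA-1-60 negative cells and 0.489 at day 8. Of 14 hypoxia targets measured in this comparison 10 were higher and 2 lower, beside 28.8% and 10.6% of all genes. On FPKM as deposited 8 were higher and 2 lower, beside 19.5% and 13.5% of all genes. P4HA2 averaged 467 in TRA-1-60 negative cells against 47.5 at day 8, while ADM itself averaged 98.1 against 98.3.

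Of the planar polarity and non-canonical Wnt list, the pathway of CTHRC1, WNT5B, PTK7 and FZD2 were lower at day 2, no gene was higher, and the median log2 ratio of the 13 measured was -0.49, where 12.9% of all genes were lower. With housekeeping scaling 2 of the list were higher, beside 15.1% of all genes. In TRA-1-60 negative cells 9 of 16 measured were higher than at day 8 and none lower, with a median of 1.13 against 0.49 over all genes, of which 28.8% were higher. WNT5A, the member highest in BJ cells, averaged 45.8 in TRA-1-60 negative cells against 22.2 at day 8. FZD2, a Wnt receptor, averaged 6.59 at day 2 against 35.7 in BJ cells and 8.29 in TRA-1-60 negative cells.

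Among the beta-thymosins and actin monomer binders 3 of 12 were lower at day 2 (TMSB10, CAP2 and TWF2) and none higher, beside 12.9% of all genes lower and 12.6% higher, but on FPKM as deposited 1 was lower and 2 higher. TMSB10 averaged 9793 at day 2 against 24100 in BJ cells, and 2032 in TRA-1-60 positive against 4488 in TRA-1-60 negative cells. TMSB4X, an abundant beta-thymosin, averaged 4260 at day 2 against 5713 in BJ cells, with a log2 ratio of -0.42. Of the LIM protein list, 15 genes were measured at day 2, where 8 were lower than in BJ cells, none was higher and the median log2 ratio was -1.05, beside 12.9% of all genes lower and an all-gene median of -0.02. On FPKM as deposited 6 were lower and 1 higher. Of the 3 listed genes highest in BJ cells, PDLIM1 was among those called, with means of 86.5 at day 2 and 207 in BJ cells. CSRP1 averaged 283 at day 2 against 509 in BJ cells and FHL2 167 against 324, with log2 ratios of -0.84 and -0.95, short of 2-fold. In TRA-1-60 negative cells 10 of these 15 were higher than at day 8 and none lower, with a median of 1.19 against 0.49 over all genes, of which 28.8% were higher, FHL2 at 220 against 92.6 and CSRP1 at 545 against 197. On FPKM as deposited 6 of the 15 were higher and none lower, beside 19.5% and 13.5% of all genes. TRA-1-60 positive cells against TRA-1-60 negative cells had 7 of 15 lower and none higher, where 21.6% of all genes were lower. With housekeeping scaling 7 of 16 were lower and 1 higher, beside 17.9% and 34.6% of all genes.

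The oxytocin and vasopressin list had 7 of 14 genes measured at day 2, of which PLCB4 and RGS2 were higher and none lower. Of all genes 12.6% were higher. On FPKM as deposited 1 of the list was higher, beside 23.6% of all genes. RGS2, a regulator of Gq signalling, averaged 63.4 at day 2 against 27.2 in BJ cells, 1134 at day 8 and, at day 16, 78.3 in TRA-1-60 positive against 968 in TRA-1-60 negative cells. GNA11 and GNAQ, the Gq proteins used by OXTR, had log2 ratios of -0.18 and 0.20 at day 2, short of a call. Of the Wnt inhibitors, 7 of 16 were measured at day 2 and 1, SFRP1, was lower, beside 12.9% of all genes. SFRP1 averaged 1.25 in BJ cells and 0.069 at day 2, and 9.8% and 1.0% of cells held it. With housekeeping scaling 6 inhibitors were measured, of which 1 was lower and 1 higher, beside 15.8% and 15.1% of all genes. On FPKM as deposited none of 4 was called. DKK1 averaged 326 at day 2 against 422 in BJ cells and then 38.9 at day 8, an order like that of APCDD1L except that day 2 was below BJ cells. APCDD1, the relative of APCDD1L, averaged 3.01 at day 2 against 1.30 in BJ cells and 12.1 at day 8, so it was higher where APCDD1L was lower. DKK3 averaged 316 in TRA-1-60 negative cells against 55.2 at day 8, and 7 of the 11 inhibitors measured in that comparison were higher and 1 was lower, beside 28.8% of all genes higher and 10.6% lower. On FPKM as deposited 5 of the 11 were higher and 1 lower, beside 19.5% and 13.5% of all genes.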

How the data were processed

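Single cells were captured on Fluidigm C1 chips and polyadenylated RNA was made into Nextera XT libraries, per the labels' protocols. The authors deposited FPKM per gene and cell in 5 tables, 1 per group. STAR, Cuffnorm and the build hg19 are named in the submitters' processing notes, with no versions. No sequencing depth is given: the commonest ratio of low values between neighbouring cells held a median of 2.09% of genes, so whole reads could not be recovered.

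From these files the FPKM values were rescaled to 1e+06 per cell, cells were filtered at 2000 detected genes and ACTB or GAPDH, and group means were compared as log2 ratios with a pseudocount of 1 (Python 3.11.15, pandas 2.3.3, numpy 2.4.6, scipy 1.17.1). Doublets were not called. Alternatives were other scalings, cell filters, pseudocounts, detection limits, mean log2 values, and leaving out high cells. The members, lists and motifs were chosen with earlier results of these data known, and GCGTG was searched after the other motifs. Named were the 6 genes, their 3 nearest genes, at most 3 genes per list by BJ mean and any called higher; CALCRL, ADM2, RAMP3 and other list genes beyond that were named after their values were seen. Transcript and coding sequences came from GENCODE on GRCh38 and promoters from RefSeq; 4 of the 6 genes matched the promoter table.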

Additional observations from a re-analysis of the deposited data

Results flagged for a closer look

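FHL1 moved in opposite directions in the 2 fractions of day 16 when each was set against day 8. The log2 ratio was -2.84 in TRA-1-60 positive cells and 1.09 in TRA-1-60 negative cells (3.59 and 69.1 against 31.9 at day 8). The rise in TRA-1-60 negative cells fell short of 2-fold on FPKM as deposited (0.83) and with a larger pseudocount (0.92). The fall in TRA-1-60 positive cells stayed past 2-fold in both settings, at -3.04 and -1.63. Over all measured genes the median log2 ratio to day 8 was 0.49 in each fraction. In TRA-1-60 negative cells 28.8% of all genes were called higher than at day 8. Each group is 1 sample, so the difference between the fractions was not tested.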

How the results depend on the processing

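Of 488 log2 ratios recomputed under an alternative, 461 stayed on their side of 2-fold, 24 fell short of it, 3 passed it and no called ratio changed sign, while 6 uncalled ones did: APCDD1L at day 2 against BJ with no cell filter (-0.43 against 0.36), ADM in TRA-1-60 negative cells against day 8 with housekeeping scaling (0.28) and without the highest cell (0.17), against -0.00, and, in cells with at least 4000 genes, TMSB15A (-0.13 against 0.17) and FHL1 (-0.00 against 0.17) at day 8 against day 2 and TMSB15A in TRA-1-60 positive cells against day 8 (0.43 against -0.20). In 10 cases the count of lower genes moved by 1 and stayed within 1.5 times. Larger changes in the counts were these. The 1 gene higher at day 8 against day 2 (ADM) became 0 with no cell filter, in cells with at least 4000 genes, by the difference of mean log2 values, with a pseudocount of 10 and without the highest cell. Genes higher in TRA-1-60 negative cells against day 8 numbered 1 on deposited FPKM and with a pseudocount of 10, not 2. By the difference of mean log2 values and with a pseudocount of 10, genes lower against day 8 numbered 2 in TRA-1-60 positive cells, not 4, and 1 in TRA-1-60 negative cells, not 2. By the difference of mean log2 values, genes higher in TRA-1-60 positive against negative cells numbered 0, not 1. The median number of genes held was 6 in BJ cells at any value above 0 and 0 in TRA-1-60 positive cells at a value of 10 or more. The causes were not tested. Of 240 shares of cells, 225 stayed within the 95% interval of the reported share. Housekeeping scaling moved the median log2 ratio of all genes in TRA-1-60 positive cells against BJ cells to 0.82, from 0.55, and deposited FPKM moved that of day 2 against BJ cells to 0.17, from -0.02. Deposited totals reached 7.49405e+07 in a day 2 cell. No paired analysis was possible because the replicate numbers only number cells and no comparison was tested. With 85 to 96 cells per group, a gene in no cell could still be held by 3.13 to 3.53% of cells.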
